A study of Mus musculus with 2 samples.

Results

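The Ms4a genes encode small proteins that cross the cell membrane several times and keep both ends in the cytoplasm. Their RNA was followed here through 9 members, Ms4a1, Ms4a2, Ms4a4a, Ms4a4b, Ms4a4c, Ms4a6b, Ms4a6c, Ms4a6d and Ms4a7, in immune cells of mouse-grown tumors. The members were taken by symbol, by a rule that used no measured values, from the 19 Ms4a genes among the 32285 genes of the deposited tables. Earlier results of these data were known when they were chosen. In the cells kept, 8 of the 9 members had at least 20 UMIs (unique molecular identifiers, counted RNA molecules) in each library, and Ms4a2 had none in one library and 17 in the other. The tumors were grown in nude mice from 143B, an established human osteosarcoma line. Mice were 4 weeks old when the tumor cells were injected, and they then received 4 injections of 10 mg/kg, 3 days apart, of either a human IgG1 control (control IgG) or an antibody to CD3L1 (anti-CD3L1), a molecule the study examines as an immune checkpoint. Immune cells were taken from the tumors with magnetic beads for CD45, the pan-leukocyte antigen, and profiled by 10x single-cell RNA sequencing. Each treatment gave 1 library from a set of 3 tumors that the barcodes do not separate, so there was no replicate, no test of treatment and no p-value. Nude mice have no working thymus and few T cells, which limits what can be said of members that T cells use.

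Individual members mark different blood cells. Ms4a1 is CD20, the surface protein of B cells that rituximab binds in humans. Ms4a2 is the beta chain of the high-affinity IgE receptor on mast cells and basophils, where it amplifies the signal of the receptor. Ms4a4b is known from T cells and NK cells, Ms4a7 from macrophages of tissues such as the brain lining, and Ms4a4a, Ms4a4c, Ms4a6b, Ms4a6c and Ms4a6d from cells of the monocyte and macrophage line. MS4A4A and MS4A6A, the human counterparts of some of these, lie in a region linked to Alzheimer's disease.

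In all, 74850604 UMIs were counted for control IgG and 108246719 for anti-CD3L1. Barcodes with at least 500 UMIs, more than 200 and fewer than 6000 genes and under 5% mitochondrial UMIs were kept as cells, 8557 for control IgG and 11269 for anti-CD3L1. Their median depth was 5526 and 8267 UMIs. The libraries shared 26 cell barcodes, 0.304% and 0.231% of their cells. Cells were sorted into classes by marker genes that included no Ms4a gene, and a class name below means that the cells carry the markers of that type. The libraries differed widely in their make-up. Neutrophils were 71.0% of control IgG cells and 5.61% of anti-CD3L1 cells, and macrophages that express C1q, the opening component of complement, were 5.84% and 38.7%. Monocytes made up 11.4% and 17.1% and NK cells 1.64% and 7.53%, and 9.21% and 23.2% of cells were left unassigned. Only 3 and 9 cells carried T cell markers.

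All 9 members lie in a run of 21 family genes on chromosome 19 of the mouse reference annotation (GRCm38), in the order Ms4a1, Ms4a7, Ms4a4a, Ms4a4c, Ms4a4b, Ms4a6c, Ms4a6b, Ms4a6d and Ms4a2 with other genes between some of them. The reference held promoter windows, from 250 bases before to 50 bases after a start site, for 7 members in 8 windows. Among the 28 pairs of these windows, 26 could be aligned over no more than 50 bases. The exceptions were Ms4a4b with Ms4a4c and Ms4a6b with Ms4a6c. These 4 windows are printed because each pair is alike in letters while its genes differ in the cells that carry their RNA. Coordinates are from RefSeq on GRCm38.p6 and all 4 genes are on the plus strand. Capitals mark bases of the aligned stretch that differ from, or have no partner in, the other window of the pair, and each window runs from 5′ to 3′ through the start of the transcribed part.
Ms4a4b, chr19:11443308-11443607: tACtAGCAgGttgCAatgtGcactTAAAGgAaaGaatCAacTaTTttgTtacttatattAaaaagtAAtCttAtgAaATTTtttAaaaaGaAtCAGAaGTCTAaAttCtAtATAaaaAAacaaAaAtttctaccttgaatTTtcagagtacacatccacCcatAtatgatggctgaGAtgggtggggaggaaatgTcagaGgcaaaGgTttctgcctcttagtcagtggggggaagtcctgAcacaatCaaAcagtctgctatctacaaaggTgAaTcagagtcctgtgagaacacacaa
Ms4a4c, chr19:11407411-11407710: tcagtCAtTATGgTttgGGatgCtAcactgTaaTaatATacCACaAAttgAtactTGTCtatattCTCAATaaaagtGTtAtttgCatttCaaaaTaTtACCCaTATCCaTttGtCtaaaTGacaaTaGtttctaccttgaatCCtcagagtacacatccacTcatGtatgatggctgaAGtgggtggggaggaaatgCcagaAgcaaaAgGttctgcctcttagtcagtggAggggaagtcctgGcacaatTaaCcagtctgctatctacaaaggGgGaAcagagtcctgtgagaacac
Ms4a6b, chr19:11518309-11518608: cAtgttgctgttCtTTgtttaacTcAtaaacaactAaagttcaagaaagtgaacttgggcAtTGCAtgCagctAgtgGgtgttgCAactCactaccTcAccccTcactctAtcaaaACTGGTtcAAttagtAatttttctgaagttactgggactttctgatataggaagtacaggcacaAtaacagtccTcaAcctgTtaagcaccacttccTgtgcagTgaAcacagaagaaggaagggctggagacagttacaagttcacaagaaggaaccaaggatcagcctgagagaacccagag
Ms4a6c, chr19:11469118-11469417: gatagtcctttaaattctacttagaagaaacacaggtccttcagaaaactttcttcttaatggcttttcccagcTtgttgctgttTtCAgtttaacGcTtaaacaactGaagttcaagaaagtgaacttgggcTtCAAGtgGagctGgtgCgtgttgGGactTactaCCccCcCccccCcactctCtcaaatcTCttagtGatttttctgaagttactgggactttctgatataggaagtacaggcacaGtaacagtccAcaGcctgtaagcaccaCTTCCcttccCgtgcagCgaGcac

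The Ms4a4b and Ms4a4c windows aligned over 283 bases, of which 225 (79.5%) were the same. The Ms4a6b and Ms4a6c windows aligned over 220 bases, of which 189 (85.9%) were the same, with a longest identical run of 48. Most capitals of the Ms4a4b and Ms4a4c windows stand in the part farthest upstream, and few stand near the start site. Likeness extends into the transcripts, where 7.67% of the 50-base stretches of Ms4a4c also occur in Ms4a4b and 6.08% of those of Ms4a6c in Ms4a6b. Ms4a1, Ms4a4a and Ms4a7 shared no such stretch with another protein-coding Ms4a gene. The other 6 members did, and a read that lies wholly in such a stretch cannot tell the genes apart. How such reads were counted was not examined. Pseudogenes, genes of other names and stretches that differ by a base were not compared.

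Motifs of factors known from blood cells were searched on both strands of the windows, as letters only. The core of the interferon-stimulated response element, written as GAAA, any 2 bases and GAAA, was in 3.44% of 32851 promoter windows and in 0 of the 8 member windows. The shorter GAAANNGAA (reverse complement TTCNNTTTC), tried after that result was seen and overlapping the longer motif, was in 8.56% of all windows and in 4 of 8 member windows. These were Ms4a6b at 206 bases before the start site, Ms4a6c at 133 bases before it, with the letters GAAAGTGAA in both, and both Ms4a7 windows. The Ms4a6b and Ms4a6c windows are alike in sequence and the Ms4a7 windows belong to a single gene, so these matches are not independent. GAGGAA, a core bound by the myeloid factor PU.1 (reverse complement TTCCTC), was in 28.3% of windows and in 3 of 8 member windows. It lies 64 bases before the start of Ms4a4b and 61 bases before that of Ms4a4c, where the letters of both windows are the same. TTGCNNAA, a core of C/EBP sites (reverse complement TTNNGCAA), was in 10.8% of windows and in no member window.

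Levels are given below as UMIs per 1000000 UMIs of the class (CPM), with 95% exact Poisson intervals, and ratios between libraries with 95% exact binomial intervals. These intervals cover counting error only. The class with the highest level of a member was the same in both libraries for all 8 members with enough UMIs. C1q macrophages led for Ms4a7, monocytes for Ms4a4a, Ms4a4c, Ms4a6b, Ms4a6c and Ms4a6d, NK cells for Ms4a4b and B cells for Ms4a1. Classes under 20 cells were left out of this order, except the 7 control IgG B cells for Ms4a1. The rare T cells, left out by that limit, had 293.5 CPM (118.0 to 604.7) and 373.5 CPM (231.2 to 571.0) of Ms4a6b, from 7 and 21 UMIs. These intervals overlap those of monocytes. Their Ms4a4b, at 1467.5 CPM (1022.2 to 2040.9) and 675.9 CPM (478.3 to 927.8), was above that of NK cells beyond counting error. It rests on 3 and 9 cells, and 1 control IgG cell held 28 of 35 UMIs, a spread the interval leaves out.

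**Figure D1:**
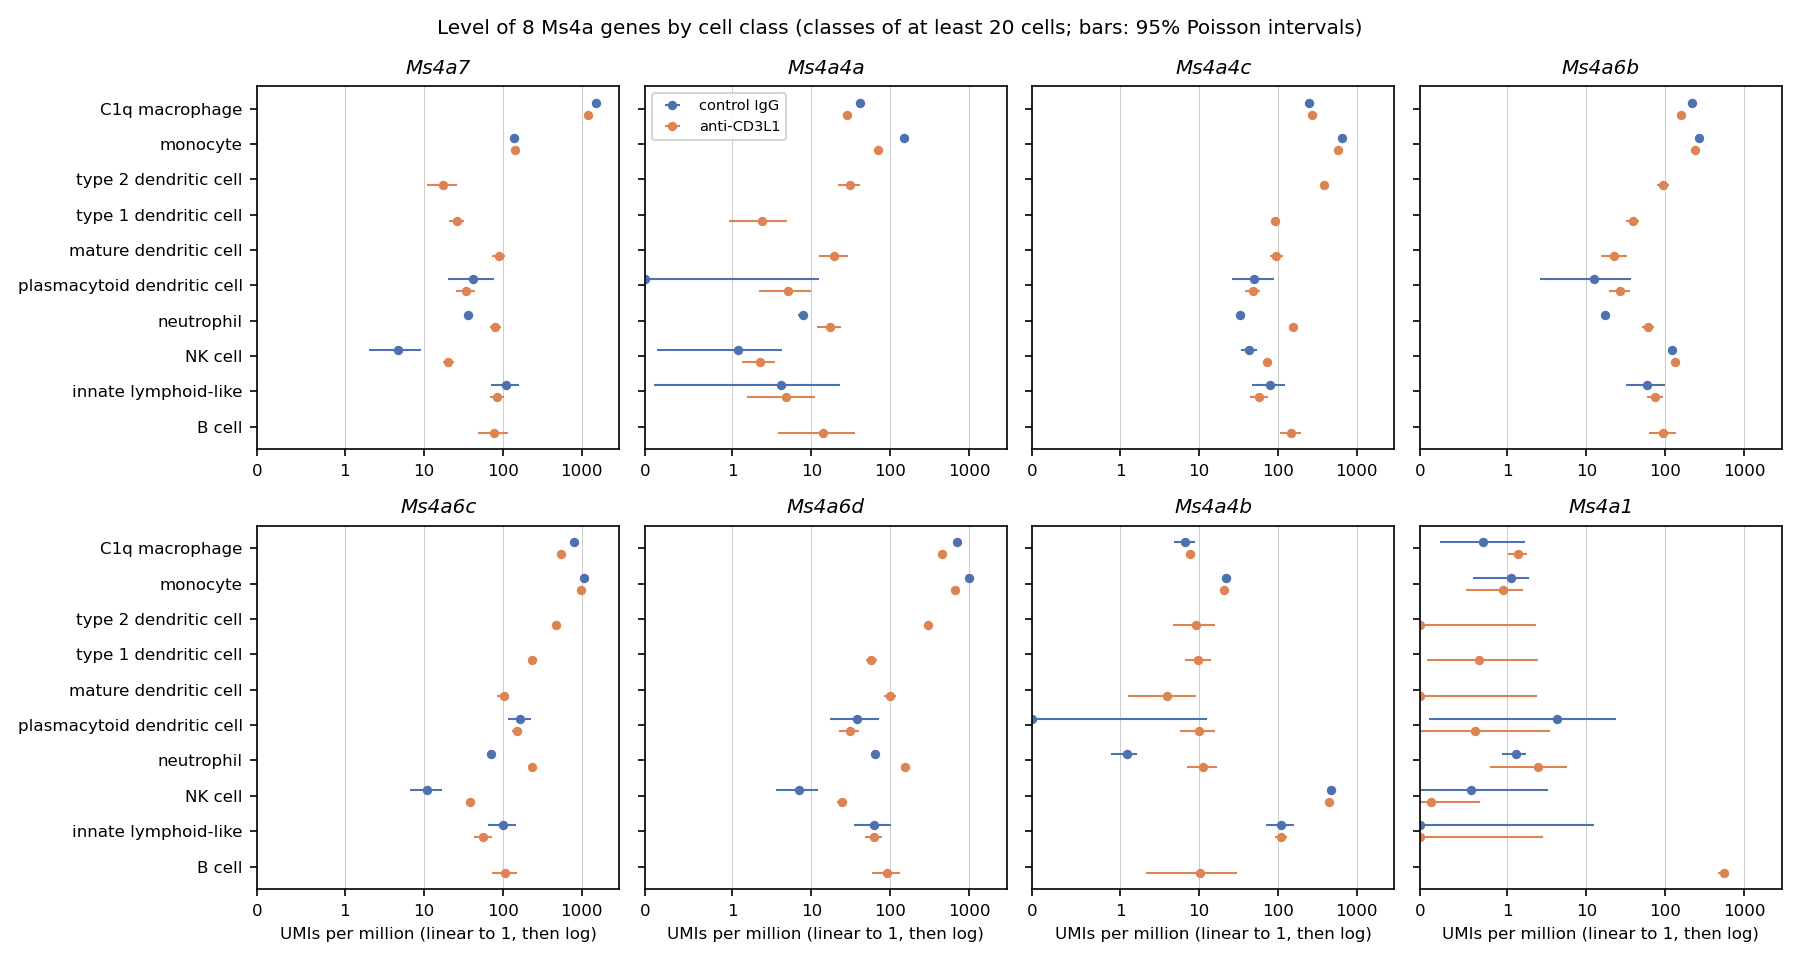
Level of 8 Ms4a genes in each class, in UMIs per 1000000 on an axis that is linear up to 1 and logarithmic above; points are the library levels, bars 95% exact Poisson intervals, and classes of at least 20 cells in a library are drawn. Ms4a7 is highest in C1q macrophages at 1502.9 and 1201.8, Ms4a4b in NK cells at 472.3 and 449.6, and the 5 monocyte-led genes reach their highest levels in the monocyte row.

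Ms4a7 was led by C1q macrophages. Its level there was 1502.9 CPM (1474.0 to 1532.1) with control IgG and 1201.8 CPM (1191.4 to 1212.3) with anti-CD3L1. In monocytes it was 139.6 and 141.9 CPM. Macrophages were thus 10.8-fold above monocytes with control IgG and 8.47-fold above them with anti-CD3L1, and they held 59.5% and 84.4% of all Ms4a7 UMIs. Below monocytes the order was close. In the anti-CD3L1 library mature dendritic cells (89.0 CPM), innate lymphoid-like cells (85.2) and neutrophils (80.3) had overlapping intervals, and NK cells (20.4) and type 2 dendritic cells (17.5) did as well.

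Within the macrophage class Ms4a7 varied from cell to cell. A control IgG macrophage held a median of 16 UMIs of Ms4a7 and at most 96. An anti-CD3L1 macrophage, sequenced less deeply (median 9458 UMIs against 13655.5), held a median of 8 and at most 117. With every cell thinned to 1000 UMIs, 65.7% (61.3 to 69.8) and 54.3% (52.8 to 55.8) of macrophages kept an Ms4a7 UMI, against 94.2% and 85.0% unthinned. In neutrophils, which should lack the gene, the thinned shares were 1.59% and 3.74% at median depths of 4522 and 2214 UMIs. Macrophages with a UMI of Folr2, a folate receptor of resident-type macrophages, had more Ms4a7 than those without. The levels were 1616.3 against 1421.5 CPM with control IgG and 1399.8 against 1037.7 CPM with anti-CD3L1. Folr2 itself belongs to the macrophage markers, and cells with a Folr2 UMI were deeper, at a median of 10655.5 against 8526 UMIs in the anti-CD3L1 library.

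The 5 monocyte-led members differed in how far they extended into macrophages. Ms4a4a had the steepest fall. Its level was 148.3 CPM in monocytes and 41.7 in macrophages with control IgG, a 3.56-fold difference, and 70.0 and 28.6 CPM with anti-CD3L1, a 2.45-fold difference. Ms4a4c was 647.3 and 245.0 CPM with control IgG, 2.64-fold higher in monocytes, and 577.3 and 269.4 CPM with anti-CD3L1, 2.14-fold higher. The Ms4a6 genes differed by less than 2-fold between these classes. Ms4a6b, Ms4a6c and Ms4a6d were 1.23, 1.32 and 1.42 times as high in monocytes as in macrophages with control IgG, and no more than 1.79 times as high with anti-CD3L1. Among all genes counted, 5.13% with control IgG and 4.55% with anti-CD3L1 were at least 2-fold higher in monocytes than in macrophages, and 16.9% and 10.2% were at least 2-fold lower.

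Outside monocytes and macrophages, dendritic cells separated these members further. Type 2 dendritic cells, which share genes with monocytes, were numerous enough only in the anti-CD3L1 library (121 cells). They held 380.7 CPM of Ms4a4c, 468.3 of Ms4a6c and 303.0 of Ms4a6d. Type 1 dendritic cells, the cross-presenting subset, held 231.1 CPM of Ms4a6c but 57.4 of Ms4a6d, while in monocytes of the same library the levels were 967.2 and 665.1. Plasmacytoid dendritic cells showed the same split in both libraries, with 164.2 and 149.1 CPM of Ms4a6c beside 37.9 and 30.6 of Ms4a6d. NK cells split the Ms4a6 genes as well. Ms4a6b was 123.0 CPM (107.0 to 140.7) and 132.9 CPM (125.1 to 141.0) there, 2.20 and 1.79 times below monocytes. After thinning to 1000 UMIs, 9.29% and 13.3% of NK cells kept a UMI of Ms4a6b, against 0.811% and 2.04% of neutrophils (59.3% and 56.8% of NK cells unthinned). Ms4a6c was 96.1 and 25.6 times below monocytes in the same cells. Ms4a6b and Ms4a6c, whose printed promoter windows are alike, thus parted in NK cells.

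Ms4a4b stood at 472.3 CPM (440.4 to 505.9) in control IgG NK cells and 449.6 CPM (435.1 to 464.4) in anti-CD3L1 NK cells. These levels were 21.5-fold and 21.9-fold above monocytes and 70.7-fold and 57.8-fold above macrophages. NK cells held 55.6% and 68.4% of its UMIs, and 92.1% and 88.7% of NK cells held at least 1, against 7.40% and 5.28% of macrophages. Innate lymphoid-like cells, marked by Gata3 and Il1rl1, had 108.3 CPM (70.7 to 158.7) and 109.8 CPM (90.8 to 131.7). The rare cells with T cell markers also carried it. It had 35 UMIs over 3 of 3 cells with control IgG, from 1 to 28 per cell. With anti-CD3L1 it had 38 UMIs over 7 of 9 cells, from 0 to 12 per cell. Its sequence neighbour Ms4a4c was at 43.5 and 73.9 CPM in NK cells and at 647.3 and 577.3 CPM in monocytes.

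Ms4a1 and Ms4a2 each had their highest level in a rare class. B cells held 589.0 CPM (412.6 to 815.5) of Ms4a1 with control IgG, from 36 UMIs in 6 of 7 cells, and 548.7 CPM (466.4 to 641.2) with anti-CD3L1, from 158 UMIs in 45 of 60 cells. In no other class of at least 20 cells was its level above 4.21 CPM. Cd79a, a signaling chain of the B cell antigen receptor, was among the markers that define the class, so the B cell label rests on genes other than Ms4a1. Ms4a2 had 0 UMIs in 8557 control IgG cells, which allows up to 0.0446 CPM, and 17 UMIs in 9 of the anti-CD3L1 cells. Of these, 16 lay in 8 of the 10 cells with mast cell or basophil markers, where the counts ran from 0 to 6 per cell. The control IgG library held a single such cell, so a difference in Ms4a2 per cell was not detectable at this depth.

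Over all cells together, 7 of the 8 members that could be compared had an interval above an even ratio and Ms4a4a had one below it. Most genes lay above as well, with 68.8% of 17781 genes above and 14.6% below, so this direction was not particular to the members. An interval is narrower for genes of more UMIs. Ms4a7 was 258.5 CPM with control IgG and 614.6 CPM with anti-CD3L1 (log2 ratio 1.25), and Ms4a4b was 21.8 and 54.6 CPM (1.33). Ms4a4a was 46.1 and 33.2 CPM (-0.47), and Ms4a6d hardly differed at 387.5 and 410.3 CPM (0.08). The make-up of the libraries was set apart by giving each class its control IgG level and its anti-CD3L1 share of UMIs. That calculation alone gave a log2 ratio of 1.57 for Ms4a7, 1.29 for Ms4a4b and 0.34 for Ms4a4a. What remained was -0.32 for Ms4a7, 0.04 for Ms4a4b, -0.82 for Ms4a4a and -0.58 for Ms4a6d. Class sizes alone thus gave a larger ratio than measured for Ms4a7 and nearly the same ratio for Ms4a4b, and they gave a ratio of the opposite direction for Ms4a4a.

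**Figure D2:**
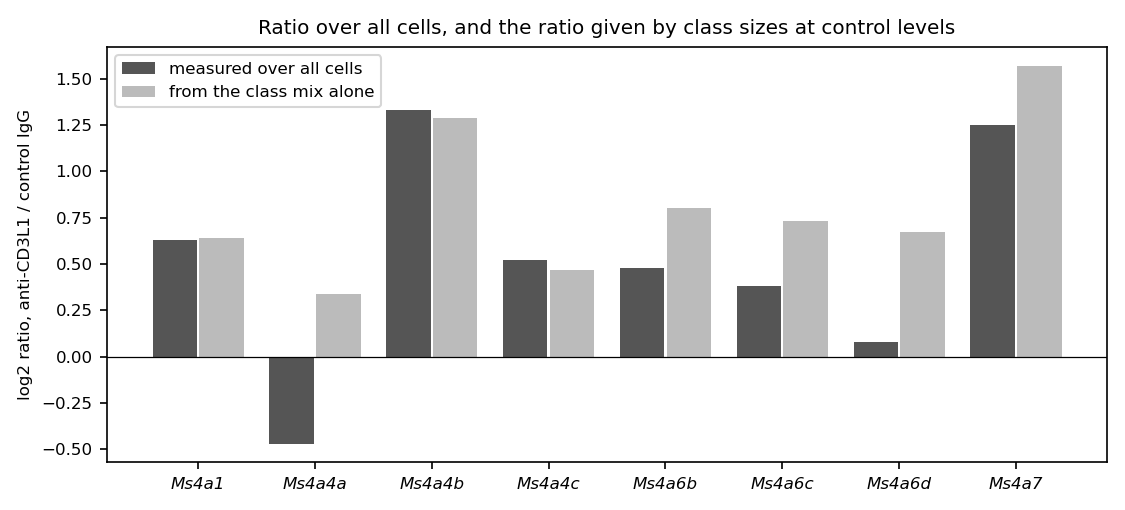
Ratio between libraries (log2, anti-CD3L1 divided by control IgG) of 8 Ms4a genes, over all cells (dark bars) and as given by class sizes alone at control IgG levels (light bars). For Ms4a4b the bars are nearly equal at 1.33 and 1.29, and for Ms4a4a they point in opposite directions at -0.47 and 0.34.

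Within C1q macrophages, 5 of 8 members were lower with anti-CD3L1 beyond counting error, 1 was higher, and 2 had intervals that include no difference. Among all 14423 genes counted, 19.6% had an interval below an even ratio and 20.5% one above it, and an interval is narrower for genes of more UMIs. The lower genes were Ms4a6d, Ms4a6c, Ms4a4a, Ms4a6b and Ms4a7. Ms4a6d was 694.4 CPM with control IgG and 456.4 with anti-CD3L1 (log2 ratio -0.61, -0.65 to -0.56). Ms4a6c was 802.8 and 541.4 CPM (-0.57, -0.61 to -0.53). Ms4a6b was 220.3 and 158.9 CPM (-0.47, -0.55 to -0.39), and Ms4a7 had a log2 ratio of -0.32 (-0.35 to -0.29). Ms4a4c went the other way, at 0.14 (0.06 to 0.21). No member passed 2-fold in either direction, beside 7.86% of all genes counted that were at least 2-fold higher and 4.45% at least 2-fold lower. The median log2 ratio was -0.40 over the members and 0.02 over all genes.

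The macrophage class was made of different cells in the libraries. Clustering without the Ms4a genes put 46.8% of control IgG macrophages in cluster 7 (Fcrls, Ccl8, C1qa) and 25.6% in cluster 1 (Thbs1, Vcan), whereas 36.3% of anti-CD3L1 macrophages were in cluster 17 (Spp1) and 22.5% in cluster 7. Inside cluster 7, Ms4a7 was 1830.4 and 1699.3 CPM and Ms4a4c 162.5 and 231.6 CPM (log2 ratio 0.51, 0.38 to 0.65). Ms4a6c and Ms4a6d were lower with anti-CD3L1 there too, with log2 ratios of -0.34 and -0.43, and in clusters 12 and 17 as well, which held 45 and 36 control IgG macrophages. In cluster 1, with 128 and 39 macrophages, Ms4a6d was lower (-0.96, -1.26 to -0.67). Intervals of Ms4a6c (-0.20, -0.43 to 0.03), Ms4a4a, Ms4a4c and Ms4a6b included no difference there. Ms4a7 was 1214.4 and 142.9 CPM in cluster 1 (-3.09, -3.64 to -2.59). It was lower in cluster 17 (-0.43, -0.55 to -0.31), and in cluster 12 its interval included no difference (0.12, -0.01 to 0.25). Ms4a4c, higher in cluster 7, had an interval that includes no difference in cluster 12 (-0.10, -0.29 to 0.09). In cluster 17 it was lower (-0.41, -0.66 to -0.14). Ms4a4a and Ms4a6b had intervals that include no difference in cluster 7. Ms4a6b was lower in clusters 12 (-0.37, -0.62 to -0.11) and 17 (-0.82, -1.12 to -0.52), where the intervals of Ms4a4a included no difference. Ms4a4a also lost its difference when the class was built from clusters in place of markers, at a log2 ratio of 0.00. The summed level of 12 neutrophil markers in the macrophage class was 1450.1 CPM with control IgG and 463.0 with anti-CD3L1, and 12 of 12 were lower. Its part in these ratios was not tested.

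**Figure D3:**
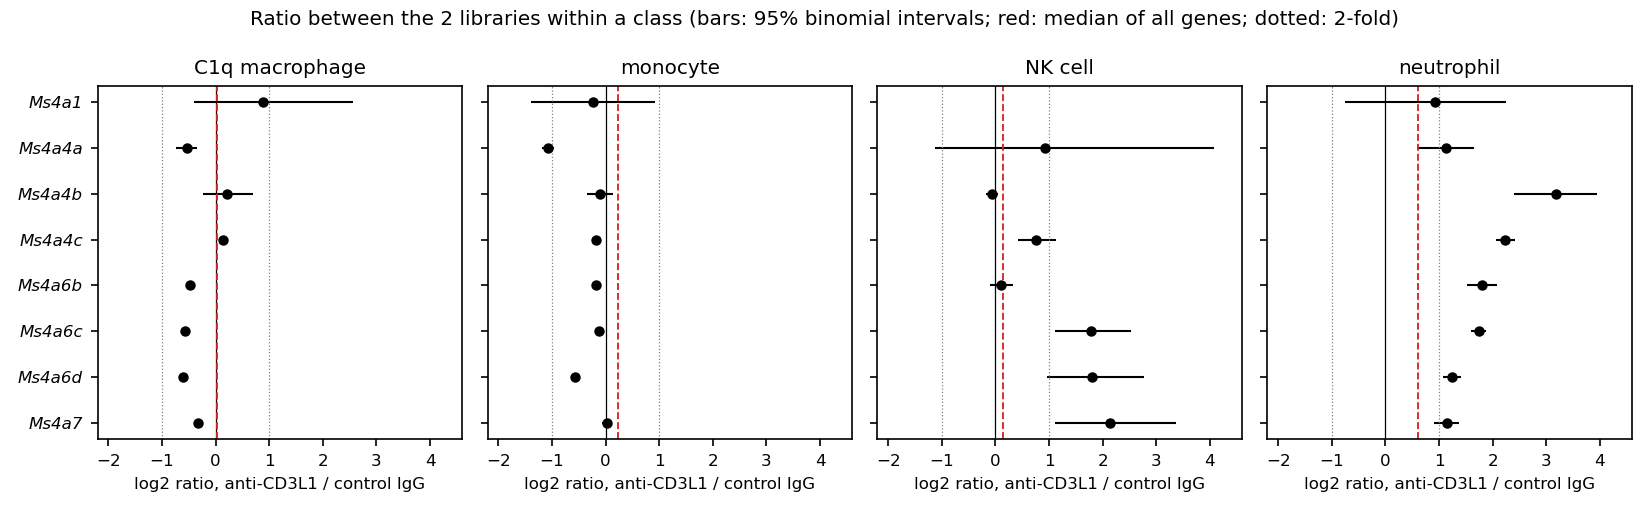
Ratio between libraries (log2, anti-CD3L1 divided by control IgG) of each Ms4a gene with at least 20 UMIs, within 4 classes; points are ratios of CPM, bars 95% exact binomial intervals, the red dashed line the median of all genes counted and the dotted lines 2-fold. Ms4a4a in monocytes (-1.08) is the only point past the lower dotted line, and 7 points in neutrophils and 3 in NK cells lie past the upper line.

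Within monocytes, Ms4a4a showed the largest difference of the members. It was 148.3 CPM (141.6 to 155.2) with control IgG and 70.0 CPM (66.0 to 74.3) with anti-CD3L1, a log2 ratio of -1.08 (-1.19 to -0.97). After thinning to 1000 UMIs a UMI of Ms4a4a was left in 11.7% (9.77 to 13.9) of control IgG monocytes and in 6.48% (5.42 to 7.68) of anti-CD3L1 monocytes, against 62.9% and 31.9% unthinned. In NK cells the thinned shares were 0 of 140 cells, which allows up to 2.14%, and 0.236%. Ms4a6d was 988.8 and 665.1 CPM (-0.57, -0.61 to -0.53). Ms4a4c, Ms4a6b and Ms4a6c were lower by less, with log2 ratios of -0.17, -0.18 and -0.13, and the intervals of Ms4a1, Ms4a4b and Ms4a7 include no difference. Of all genes, 13.3% had an interval below an even ratio and 41.3% one above it. Ms4a4a was the 1 member at least 2-fold lower and none was at least 2-fold higher, beside 2.55% of 12673 genes lower and 10.9% higher by that much. The members' median was -0.17 and that of all genes 0.24.

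Monocytes too came from different clusters. Cluster 1 (Thbs1, Vcan) held 77.7% of them with control IgG. With anti-CD3L1 it held 26.7%, cluster 14 (Tppp3, Ccr2) 20.3% and cluster 17 (Spp1) 19.7%. By its markers cluster 17 was named a C1q macrophage cluster. Clusters named monocyte held 97.2% of the gated monocytes with control IgG and 61.7% with anti-CD3L1. Ms4a4a was lower with anti-CD3L1 inside cluster 1, at 154.6 and 122.6 CPM (-0.33, -0.49 to -0.19), and inside cluster 3 (Ifit2, Cmpk2), at 162.1 and 78.5 CPM (-1.05, -1.32 to -0.77). It was even in cluster 14, at 43.7 and 45.9 CPM (0.07, -0.57 to 0.77). Ms4a6d was lower in all 3 of these clusters, with log2 ratios of -0.58, -0.68 and -0.23. Ms4a7, level over the whole class, was 139.6 and 56.0 CPM inside cluster 1 (-1.32, -1.53 to -1.11). In cluster 3 it was lower by less (-0.30, -0.53 to -0.08), and in cluster 14 it was even (-0.02, -0.64 to 0.65). Ms4a4c, Ms4a6b and Ms4a6c were lower in cluster 1, at -0.20, -0.31 and -0.19, and in cluster 3, at -0.42, -0.37 and -0.12. Their intervals in cluster 14 included no difference.

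How the monocyte class was drawn mattered for several members. With monocytes defined by clusters, Ms4a4a was at -0.66 and Ms4a6d at -0.36, while Ms4a4c, Ms4a6b and Ms4a6c turned to 0.36, 0.15 and 0.15. With that class, and with cells thinned to 1000 UMIs, no member was 2-fold lower. Over all settings Ms4a4a ran from -1.25 to -0.66 and Ms4a6d from -0.74 to -0.36. The 9 monocyte markers that define the class summed to 5686.6 CPM with control IgG and 5083.8 with anti-CD3L1, with 2 higher and 7 lower. The summed level of 12 macrophage markers in monocytes was 2185.8 CPM with control IgG and 3922.0 with anti-CD3L1, with 10 of 12 higher. That of 12 neutrophil markers was 5114.0 and 868.0 CPM, with 11 of 12 lower. Their part in these ratios was not tested. Cells close to the limit of the gate made up 30.6% and 40.3% of the class.

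In NK cells the intervals of the best-represented members include no difference. Ms4a4b had a log2 ratio of -0.07 (-0.18 to 0.04) and Ms4a6b one of 0.11 (-0.10 to 0.33). Ms4a6c, Ms4a6d and Ms4a7 were higher with anti-CD3L1, from low levels. Ms4a4c was higher by less (0.76, 0.42 to 1.13), and the interval of Ms4a4a includes no difference (0.93, -1.13 to 4.08). Ms4a6c had 19 UMIs in control IgG NK cells and 308 in anti-CD3L1 NK cells, a log2 ratio of 1.78 (1.11 to 2.53). Ms4a6d was 6.96 and 24.2 CPM and Ms4a7 4.64 and 20.4 CPM. These were the 3 of 7 members at least 2-fold higher and none was at least 2-fold lower, beside 9.10% of 11141 genes higher and 2.02% lower by that much. The median log2 ratio was 0.93 over the members and 0.15 over all genes. The 12 macrophage markers moved in the same direction in NK cells, with a sum of 85.9 CPM for control IgG, where Cd163 and Folr2 were at 0, and of 383.6 CPM for anti-CD3L1, 12 of 12 being higher. The 9 monocyte markers summed to 885.4 CPM for control IgG NK cells and 849.4 CPM for anti-CD3L1 NK cells, with 6 higher and 3 lower. What part these markers had in the result was not tested. RNA free in the droplets, estimated from near-empty barcodes, would give 8.03% and 6.41% of the Ms4a6c UMIs and 19.7% and 17.6% of the Ms4a7 UMIs of NK cells. With every cell thinned to 1000 UMIs, Ms4a4a, Ms4a6d and Ms4a7 had too few UMIs in NK cells to be compared. Ms4a6c was then at a log2 ratio of 0.82. No member still compared was 2-fold higher or had an interval above an even ratio.

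In neutrophils 7 of 8 members were at least 2-fold higher with anti-CD3L1 and none was 2-fold lower, beside 28.4% of 12261 genes higher and 5.99% lower. Ms4a4c was 33.3 and 157.7 CPM, Ms4a6c 70.0 and 233.1, and Ms4a7 36.2 and 80.3. The log2 ratio was highest for Ms4a4b, at 3.19 (2.40 to 3.95), from 44 UMIs with control IgG and 23 with anti-CD3L1. The median log2 ratio was 1.49 over the members and 0.60 over all genes, and scaling by the median gene lowered every neutrophil ratio by 0.53 and left 4 members past 2-fold. The share of all genes past 2-fold after that scaling was not counted. The 12 macrophage markers summed to 603.0 and 2048.2 CPM in these neutrophils, 11 of 12 higher and Cd163 at 0 in the anti-CD3L1 library. The 9 monocyte markers summed to 1198.4 and 1804.4 CPM, 9 of 9 higher, and the 10 NK cell markers to 11.8 and 34.3 CPM, 9 of 10 higher. The class's own 12 neutrophil markers summed to 169585.1 and 78234.9 CPM, with 4 higher and 8 lower. The part of these markers in the result was not tested. Neutrophils too came from different clusters. Cluster 5 held 49.0% of them with control IgG and 5.54% with anti-CD3L1, and cluster 6 held 81.2% with anti-CD3L1. Few cells carried the members. Ms4a6c had a UMI in 6.24% and 13.9% of neutrophils, unthinned. Cluster 13 (Thbs1, Vcan, Plcb1) was picked because Ms4a4a stood among its leading genes, so some richness in members was built in. It held 1.63% and 8.70% of neutrophils and 40.4% and 70.0% of their Ms4a6c UMIs. That cluster also held 4.76% and 25.2% of the neutrophil UMIs of all genes, and 23.2% and 39.6% of those of Ms4a7. Inside cluster 13, Ms4a6c was 594.0 and 646.4 CPM (0.12, -0.06 to 0.30) and Ms4a7 176.4 and 126.2 CPM (-0.48, -0.89 to -0.09). Ms4a4a (-0.71) and Ms4a6d (-0.46) were lower there too, and Ms4a4b (2.14, 0.77 to 3.56) and Ms4a4c (0.61, 0.37 to 0.84) higher. In cluster 6, with 911 and 513 neutrophils, Ms4a7 was higher beyond counting error, at 8.82 and 24.9 CPM. So were Ms4a4c (0.91, 0.06 to 1.73), Ms4a6c (0.76, 0.01 to 1.48) and Ms4a6d (0.85, 0.23 to 1.45), from low levels. The 12 macrophage markers summed to 344.8 and 924.0 CPM in these cluster 6 neutrophils, and their part was not tested. By the free RNA estimate, 5.27% and 13.3% of the Ms4a7 UMIs of all neutrophils would be free RNA. The share of all genes higher inside cluster 6 was not counted. The intervals of Ms4a6b included no difference in clusters 6 and 13. With the cells of highest doublet score left out, Ms4a7 in neutrophils had a log2 ratio of -0.13.

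Several members, Ms4a4c among them, differed between cells of low and high interferon response inside a class. Monocytes and macrophages of each library were ranked by their UMIs of 9 interferon-induced genes (Isg15, Ifit1, Ifit2, Ifit3, Rsad2, Oasl2, Irf7, Usp18 and Cxcl10), none of them a member, and divided into groups of nearly equal size, called tertiles. In control IgG monocytes Ms4a4c was 289.0, 454.6 and 1238.2 CPM from the lowest to the highest tertile, and with anti-CD3L1 it was 283.0, 483.6 and 976.9. The log2 difference between the highest and lowest tertile was 2.10 (2.01 to 2.19) and 1.79 (1.70 to 1.87). Ms4a6b gave 1.30 and 1.04, Ms4a6d 1.13 and 1.11, and Ms4a6c 0.66 and 0.71. Ms4a7 gave 0.52 (0.36 to 0.69) and 1.18 (1.02 to 1.35). Ms4a4b, low in monocytes, gave 2.33 and 0.96. Ms4a4a stood apart at -0.15 (-0.32 to 0.01) and 0.17 (-0.05 to 0.38). Among all genes counted in monocytes, 4.85% and 3.71% were at least 2-fold higher in the highest tertile, and the median was -0.15 and -0.10. The tertiles were of similar depth, with medians of 12786 and 12071 UMIs in the lowest and highest of control IgG.

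**Figure D4:**
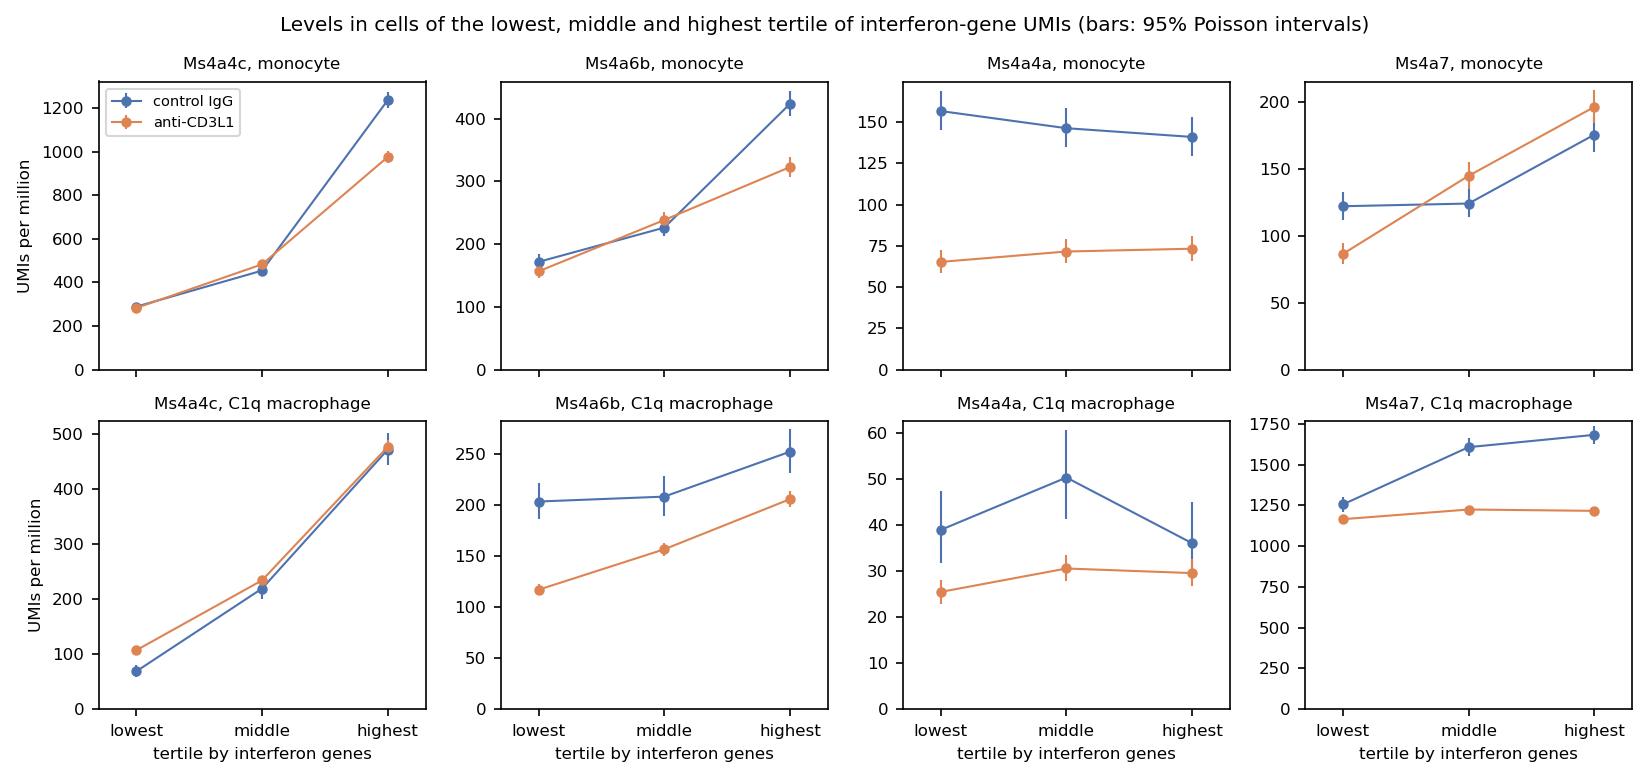
Level of 4 Ms4a genes, in CPM, in the lowest, middle and highest tertile of cells by UMIs of 9 interferon-induced genes, for monocytes (top) and C1q macrophages (bottom); points are library levels and bars 95% exact Poisson intervals. Ms4a4c climbs across the tertiles in both classes and libraries, to 1238.2 in control IgG monocytes, while Ms4a4a stays within 141.1 to 156.8 in those cells.

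Macrophages repeated the order for Ms4a4c. It was 68.8, 219.5 and 472.6 CPM over the tertiles with control IgG and 107.2, 234.5 and 477.6 CPM with anti-CD3L1, a log2 difference of 2.78 (2.55 to 3.02) and 2.16 (2.08 to 2.24). The Ms4a6 genes gave less than in monocytes with control IgG, at 0.31 for Ms4a6b, 0.38 for Ms4a6c and 0.15 for Ms4a6d, and gave 0.81, 0.82 and 0.55 with anti-CD3L1. Ms4a7 gave 0.42 and 0.06 and Ms4a4a -0.11 and 0.22 in the same cells, and 4.41% and 3.68% of all genes counted were at least 2-fold higher. Between the libraries the log2 ratio of Ms4a4c over the whole macrophage class was 0.14. That value compares all cells of the class, whereas the tertile values compare the ends of a ranking, so their sizes are of unlike kinds. The tertile ranks are relative to each library, and the summed level of the 9 genes in the lowest tertile of monocytes was 125.4 CPM with control IgG and 342.4 with anti-CD3L1.

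Clusters found without the Ms4a genes laid the family out in finer steps. Ms4a7 was highest in cluster 7 (Fcrls, Ccl8, Ptprm) at 1728.3 CPM, and among the other macrophage clusters it was 1063.7 in cluster 15 (Ctsk, Gpnmb, Trem2), 836.9 in cluster 17 (Spp1), 753.5 in cluster 12 (Ly6i, Apoc2) and 158.2 in cluster 16. It was also 895.8 in cluster 19, 26 cells of the control IgG library led by the granule genes Camp, Ngp and Ltf. Ms4a4c was highest in cluster 3, whose leading genes Ifit2, Cmpk2, Ifit3 and Rsad2 are interferon-induced, at 1249.2 CPM against 375.8 in cluster 1 and 555.3 in cluster 14. Ms4a4a was highest in cluster 1 at 120.9 CPM, and it stood among the 8 leading genes of that cluster although it took no part in the clustering. Ms4a1 likewise stood among those of cluster 11, the B cell cluster, at 528.1 CPM. Cluster 14, led by Tppp3 and Ccr2, held 42.1 CPM of Ms4a4a and 84.9 of Ms4a7, beside 1143.7 of Ms4a6c. Cluster 15 held 73.3 CPM of Ms4a4c and 245.6 of Ms4a6c, the lowest of these macrophage clusters except cluster 16. Cells of both libraries were clustered together, without adjustment between the libraries, and several clusters came mostly from 1 library. Cluster 4 had 1165 control IgG and 0 anti-CD3L1 cells, and cluster 17 had 64 and 2573. For such clusters a difference between clusters cannot be told apart from one between libraries. The cluster levels are descriptions and were given no test.

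**Figure D5:**
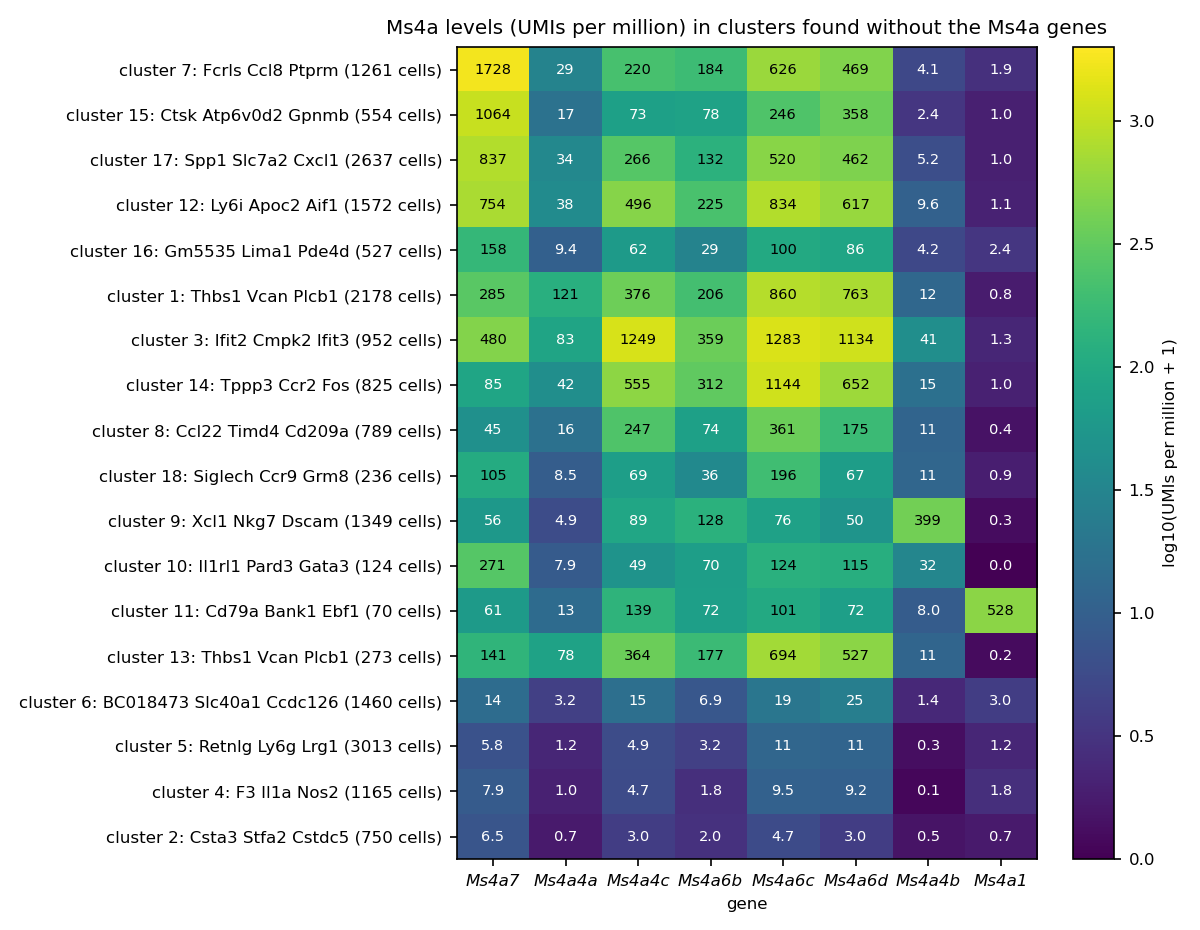
Level of 8 Ms4a genes in CPM (printed) over cells of both libraries in 18 of the 20 clusters, each named by 3 leading genes and its number of cells; the color is log10 of the level plus 1 and is to be read down a column. Ms4a7 runs from 1728.3 in cluster 7 to under 10 in neutrophil clusters 2, 4 and 5, and Ms4a4c peaks at 1249.2 in cluster 3.

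Genes with the most similar pattern were sought over 8 points, the 4 large classes in each library, among 2983 genes. Pearson's r of log2(CPM + 10) was highest for Ms4a7 with Arhgap22 (0.988), Pltp (0.986), a phospholipid transfer protein, and Stab1 (0.982), a scavenger receptor. For Ms4a4a, Ass1 (0.990) and F13a1 (0.987) were among the closest genes, and for Ms4a4b r was highest with Stk24 and Atp10a (0.994 each) and Ptpn22 (0.993). Ms4a4c was closest to Agpat4, Lztfl1 and Actb, Ms4a6b to Capn2, Elk3 and Ndufa6, Ms4a6c to Ifi207, Adap2 and Fcgr1, Ms4a6d to Pid1, Rassf4 and Lrp1, and Ms4a1, which is nearly absent from these classes, to Plekhf2, 1810058I24Rik and Lasp1. Between members, r was 0.94 for Ms4a4a with Ms4a6d, 0.93 for Ms4a4a with Ms4a4c, 0.54 for Ms4a6b with Ms4a6c and -0.40 for Ms4a4b with Ms4a4c. These points share libraries, depth and cells of a class, so the values describe likeness and no more.

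The remaining Ms4a genes were low. Ms4a8a was at 22.5 and 16.9 CPM in monocytes and at 3.05 and 7.80 CPM in macrophages. Ms4a14, next to Ms4a7 on the chromosome, was at 29.9 and 25.8 CPM in macrophages and 4.16 and 1.64 CPM in monocytes, and Ms4a12 at 3.49 and 2.51 CPM in macrophages. Ms4a7, Ms4a14 and Ms4a12 thus shared their leading class. Ms4a4d had 13 of its 41 UMIs in the 31 fibroblasts of the anti-CD3L1 library (22.1 CPM), and Ms4a15 had 16 of its 18 UMIs there in NK cells. Ms4a3, a gene of granulocyte precursors, had 9 and 4 UMIs in all, and Ms4a10 had none. Tmem176a and Tmem176b, related membrane proteins, were lower in anti-CD3L1 macrophages by more than any member, at 469.8 and 261.8 CPM (log2 ratio -0.84, -0.90 to -0.79) and 443.2 and 253.2 CPM (-0.81, -0.87 to -0.75). In monocytes they were slightly higher, at 0.22 and 0.36.

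Partners of Ms4a proteins were compared in the same classes. Trem2, a lipid receptor of macrophages whose soluble form is tied to MS4A4A in humans, was higher in anti-CD3L1 macrophages, at 175.3 and 372.3 CPM (log2 ratio 1.09), where Ms4a4a was at -0.54 and Ms4a7 at -0.32. Its adaptor Tyrobp was at 1489.8 and 1811.0 CPM (0.28). Fcer1g, the gamma chain that sits with the Ms4a2 product in the IgE receptor, was at 2258.5 and 2303.1 CPM in macrophages (0.03) and at 427.0 and 563.9 CPM in NK cells (0.40). Fcer1a, the chain that binds IgE, had 1 UMI in the control IgG library and 41 UMIs in 7 anti-CD3L1 cells, and it stood among the leading genes of the mast cell or basophil class.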

How the data were processed

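Cells with CD45 from tumors of control IgG and anti-CD3L1 mice were profiled by 10x single-cell RNA sequencing, with 1 library per treatment. As deposited by the authors, the matrices hold counts of UMIs for every droplet, made with Cell Ranger 7.1.0; the submitters' processing notes also name Seurat 5.1.0 and the build GRCm39. A deposited table of the authors' own macrophage comparison, with log2 fold changes, Wilcoxon p-values over cells and shares of cells, was not used.

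The members, lists and classes were chosen with earlier results of these data known. Cells were gated on 16 lists of 130 marker genes. A cell joined the class with the highest share of markers detected if at least 3 were detected and the lead over the next class was at least 10 percentage points, limits set after looking at the data, as were the clusters and the shorter interferon motif. A level is the gene's summed UMIs over those of every gene in the class. Ratios used genes with at least 20 UMIs over both libraries. With 1 library per group no test was possible, and the difference between libraries has no replicate check. Library, tumors and treatment cannot be told apart. Named genes were the members, the other Ms4a genes with Tmem176a and Tmem176b, partners of Ms4a proteins, interferon-induced genes, Folr2 as a split of macrophages, and for each member the 3 genes with the highest Pearson's r of log2(CPM + 10) over classes of at least 50 cells in both libraries, among genes of at least 100 CPM; cluster names use leading genes. Clec7a and Mx1 were not analysed here, and some genes that the rule names are not reported here. Promoter windows are RefSeq's on GRCm38.p6 and transcripts GENCODE's on GRCm38, not the build of the files, so no gene coordinates beyond the windows are given. Scrublet called 0 doublets in both libraries and so had not worked; the 586 and 1016 cells of highest score, 6.85% and 9.02%, were left out as an alternative. Clusters were made with scanpy 1.11.5 and python-igraph 0.11.9, intervals with scipy 1.17.1 and alignments with biopython 1.88 under Python 3.11.15, and the scripts were tested on simulated data.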

Additional observations from a re-analysis of the deposited data

Results flagged for a closer look

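Ms4a1 was present far above its level in cells in barcodes with 1 to 100 UMIs, droplets that were not counted as cells and that served only to estimate free RNA. Its level there was 98.1 CPM (89.1 to 107.8) in the control IgG library and 54.5 CPM (48.9 to 60.5) in the anti-CD3L1 library, against 1.74 and 2.70 CPM in barcodes of at least 500 UMIs. These barcodes held 433 of its 569 UMIs (76.1%) with control IgG and 347 of its 634 UMIs (54.7%) with anti-CD3L1, where the median gene had 5.31% and 5.06%. The UMIs were spread over 432 and 347 barcodes with at most 2 and 1 each, and 0 of these barcodes were shared by the libraries. Only 111 of 11717 and 116 of 13560 genes had a higher share. Cd79a, another B cell gene, had 7 and 17 UMIs in the same barcodes, and the share of Igkc, an antibody light chain, was 68.2% and 4.93%. The source of these UMIs was not tested. By the free RNA estimate, 46.8% and 36.9% of the Ms4a1 UMIs of neutrophils and 35.5% and 22.3% of those of macrophages would be free RNA. That estimate takes its gene levels from these same barcodes, so the shares are high by construction and are no separate measure. For anti-CD3L1 NK cells it expects 2.47 Ms4a1 UMIs where 1 was counted. The B cell level of Ms4a1 rests on 36 and 158 UMIs in gated cells.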

How the results depend on the processing

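No paired analysis was possible because each group has 1 library, and no replicate could be left out. Of 301 ratios of single members recomputed under the alternatives, 279 kept an interval above even, below even or including it as before. Of the rest, 8 became weaker, 4 stronger and 10 reversed. A ratio whose interval included even in both settings counted as kept although its sign could change. Ms4a4b in macrophages, for example, went from 0.22 to -0.40 with the cells of highest doublet score left out. With classes taken from clusters, 3 members were below even in monocytes and 0 were 2-fold lower; Ms4a4a in macrophages was at 0.00, and in monocytes Ms4a4b was at 0.46, Ms4a4c at 0.36, Ms4a6b and Ms4a6c at 0.15 each and Ms4a7 at -0.62. With cells thinned to 1000 UMIs, where fewer UMIs are counted, 2 members were below even in monocytes and 0 were 2-fold lower there. In NK cells 0 were above even or 2-fold higher, but Ms4a4a, Ms4a6d and Ms4a7 had too few UMIs to be compared. With the cells of highest doublet score left out, Ms4a7 was at -0.11 in monocytes and -0.13 in neutrophils. Scaling by the median gene lowered ratios by 0.53 in neutrophils and 0.17 in monocytes, left 4 members 2-fold higher in neutrophils and put Ms4a7 in monocytes at -0.15. With free RNA subtracted, 1 macrophage member, Ms4a1, was past 2-fold, on the higher side (1.16). That value rests on 5 control IgG UMIs and on the barcodes flagged above for Ms4a1. A limit of 1.5-fold gave 2 members in macrophages, Ms4a1 higher and Ms4a6d lower, and 5 higher in NK cells, with Ms4a4a and Ms4a4c added. The share of all genes past a limit was counted for the main setting only, so member counts under the alternatives stand without it. A lead of 20 percentage points, chosen after seeing the data, gave 1 member past 2-fold in macrophages, Ms4a1 (1.24), and Ms4a7 in monocytes at -0.18. The share of cells with a UMI was, unthinned, 62.9% and 31.9% for Ms4a4a in monocytes and 94.2% and 85.0% for Ms4a7 in macrophages, and thinned to 2000 UMIs 22.4%, 11.9%, 82.1% and 71.0% in that order. Apart from the settings' own construction, the cause of these changes was not tested. Depth limits the rare classes most.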
